A study of Drosophila melanogaster with 3 samples.

Results

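Genes of DNA replication were read on arrays of the midgut of Drosophila melanogaster larvae without a working ecdysone receptor, EcR. The genes were taken by symbol, as the array probes annotated to 1 gene among PCNA, RnrL, RnrS, Mcm2, Mcm3, Mcm5, Mcm6, Mcm7, Orc4 and CycE. Of these 10 genes, 8 had values on all arrays and were tested, with 2 probes for CycE and 1 probe for each of the others, among 9757 named genes and 13027 features in all. RnrS and Mcm7 had no probe under their symbols in the annotation used and were not analysed here. The mutants carried the alleles EcRM554fs/EcRV559fs, in which no EcR isoform is functional, together with the heat shock inducible transgene hs-EcR-B230.1 used for conditional rescue. Their midguts were taken at stage 2a, at the end of larval life, where they stop developing. The comparison sample was a pool of Canton S wild-type midgut RNA from several stages, and 1 such pool served all arrays. Each of 3 independent mutant samples, named replicates 3, 4 and 6 after their titles, was hybridised once, with mutant RNA in the 635 nm channel and the pool in the 532 nm channel.

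Every chromosome is copied once per S phase. The origin recognition complex, to which Orc4 belongs, marks origins and loads the ring of Mcm proteins, the helicase that unwinds DNA. Ribonucleotide reductase, whose large subunit is RnrL, makes the deoxynucleotides, PCNA is the sliding clamp that holds the polymerases on DNA, and Cyclin E (CycE) with Cdk2 starts S phase. In the larval midgut these genes serve 2 kinds of cells. The large digestive cells endoreplicate, copying DNA without division, and small imaginal cells scattered among them divide and later build the adult midgut, while the pulse of ecdysone at the end of larval life sets off death of the larval cells.

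All values are log2 ratios after the median of each array was set to 0. A positive ratio is read as higher in the mutant, which the order of the channels in the labels makes likely but which the value table does not state, and with the other direction every sign here would turn. The ratio also contains the difference in stage between mutant and pool, the heat shock transgene and the strain background, and these cannot be told apart from the loss of EcR. Nothing checks that the labelled tissue is midgut from absolute levels, because only ratios were analysed. The spread of the wild type is not in the errors, since the pool is 1 control sample, and 3 arrays limit the precision. The EcR probe itself was at 1.72, 0.57 and 2.19 on replicates 3, 4 and 6 (mean 1.49 ± 0.83, SD, n = 3; adjusted p = 0.00443 in limma). Whether this probe detects transgene RNA is not known, so it is no check of the mutation, and without replicate 3 the adjusted p was 0.0560. Over all 13027 features the arrays correlated with r = 0.897 to 0.939, and across the 44 replication genes described here with r = 0.859 to 0.928, where genes are not independent replicates and all arrays share the pool and the dye orientation.

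Replication genes were lower in the mutant midgut or near the pool, and PCNA stood apart from the others. PCNA was 2.44-fold lower, RnrL 1.44-fold lower, and Orc4, Mcm5 and Mcm6 were 1.24-fold, 1.23-fold and 1.17-fold lower, while Mcm2, CycE and Mcm3 had means within 0.06 of 0 on the log2 scale. By the limma test with Benjamini-Hochberg adjustment over all features (adjusted p under 0.05), 5 of the 8 genes were lower, 0 were higher and 3 did not pass. Of all features 37% passed at this adjusted threshold, 23.6% lower and 13.4% higher. At an unadjusted p under 0.05 the counts were again 5 lower and 0 higher, beside 3557 lower and 2556 higher of all 13027 features. The median log2 ratio of the 8 genes was -0.26, or -0.23 without PCNA, beside 0.0080 over all features. Asking also for a 1.5-fold decrease left 1 of the 8, PCNA, and 9.5% of all features. Without replicate 3 the count of lower genes was 3, namely PCNA, RnrL and Mcm5, where 15.3% of all features were called lower.

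**Figure D1:**
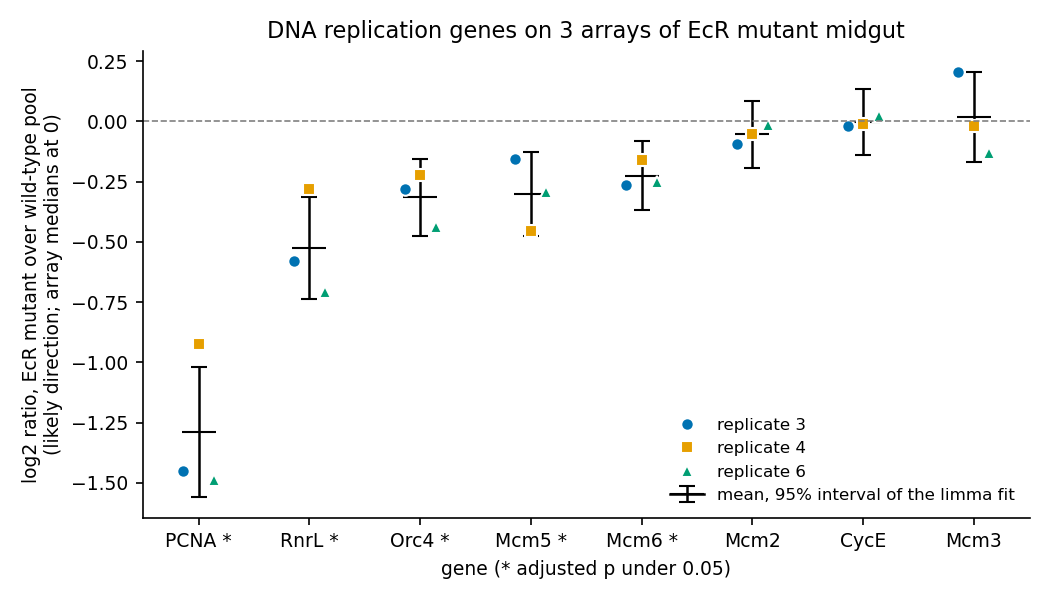
Log2 ratio (vertical axis) of the 8 replication genes (horizontal axis) on each of the 3 arrays, with the mean as a bar and its 95% interval from the limma fit. PCNA lies between -1.49 and -0.92, below every value of the other genes, and the intervals of Mcm2, CycE and Mcm3 include 0.

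PCNA (gene ID 37290), the clamp, had log2 ratios of -1.45, -0.92 and -1.49 on replicates 3, 4 and 6. All 3 arrays were far below 0, with replicate 4 the least so. The mean was -1.29 ± 0.31 (SD, n = 3; 95% interval -1.56 to -1.02; adjusted p = 1.64e-04), and 2.30% of all features had a lower mean. Other genes that work at the fork beside the clamp came from a list of 23 clamp, polymerase and strand maturation genes, of which 16 were tested, PCNA among them. In that list 4 were lower, 1 was higher and 11 missed the threshold, around a median of -0.084. The lower share was 25%, close to the 23.6% of all features. RPA2 and RPA1, subunits of the protein that coats single-stranded DNA, were at -1.05 ± 0.29 (adjusted p = 3.19e-04) and -0.46 ± 0.12 (adjusted p = 0.00185). RPA2 was closest to PCNA in this list, with -1.26, -0.72 and -1.16 on replicates 3, 4 and 6. Prim1, the catalytic subunit of primase, was at -0.36 ± 0.14 (adjusted p = 0.00824), with 0.0833 without replicate 3. RfC4, a subunit of the loader that places PCNA on DNA, was the member of the list that was higher, at 0.34 ± 0.16 (adjusted p = 0.0114), and was named after its value was seen. Its values of 0.43, 0.43 and 0.16 on replicates 3, 4 and 6 were all above 0, and without replicate 3 no gene of this list was called higher. The other loader subunits tested did not pass. They were Gnf1 at -0.18 ± 0.06 (adjusted p = 0.0593), RfC3 at -0.08 ± 0.05 and CG8142 at 0.05 ± 0.04. The polymerase alpha subunit PolA1 (-0.09 ± 0.19) and the ligase DNAlig1 (0.09 ± 0.11), also named after their values were seen, did not pass.

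**Figure D2:**
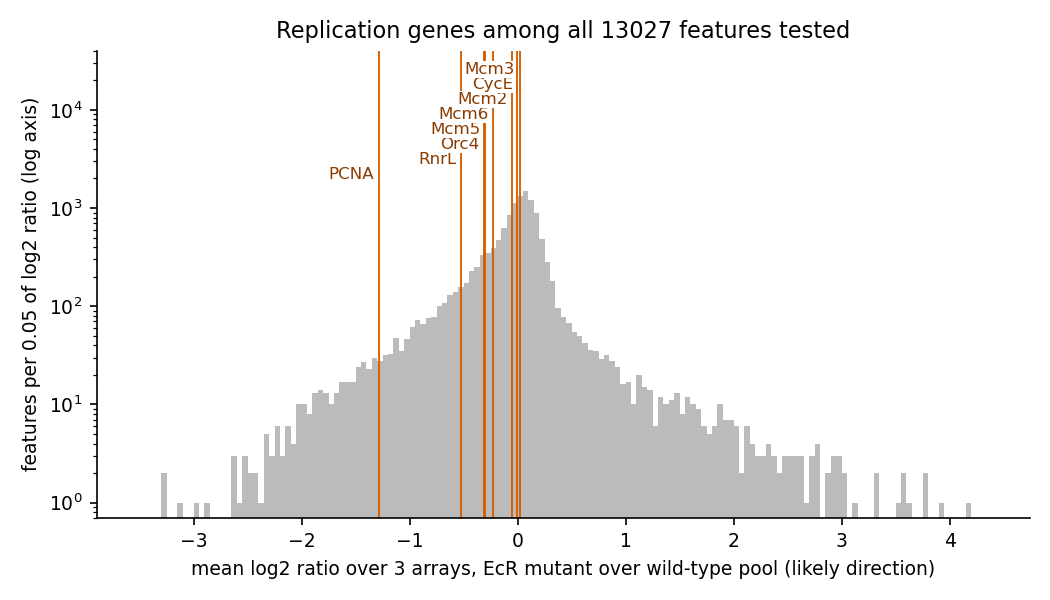
Number of features (vertical log axis) by mean log2 ratio over the 3 arrays (horizontal axis), with a line at each of the 8 replication genes. PCNA lies in the lower tail, with 2.30% of features below it, and Mcm2, CycE and Mcm3 lie near the centre, with 39.4% to 52.1% of features below them.

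RnrL (gene ID 34392) had log2 ratios of -0.58, -0.28 and -0.71 on replicates 3, 4 and 6, so that all arrays were below 0. The mean was -0.52 ± 0.22 (SD, n = 3; 95% interval -0.74 to -0.31; adjusted p = 0.00363), with 11.0% of features lower. Of 8 genes listed for deoxynucleotide supply, 3 were tested and all of these were lower, beside 23.6% of all features, with a median of -0.30. Besides RnrL they were dnk, a kinase that salvages deoxynucleosides, at -0.30 ± 0.09 (adjusted p = 0.0105), and Ts, thymidylate synthase, at -0.26 ± 0.09 (adjusted p = 0.0190). Without replicate 3 the calls of dnk and Ts were lost, at adjusted p = 0.0749 and 0.151.

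Orc4 (gene ID 37970) had log2 ratios of -0.28, -0.22 and -0.44 on replicates 3, 4 and 6. The mean was -0.32 ± 0.11 (SD, n = 3; 95% interval -0.47 to -0.16; adjusted p = 0.00977). All arrays were below 0, and the call was lost without replicate 3 (adjusted p = 0.0673). Orc4 was the member that passed among 6 tested of 9 genes for origin recognition and licensing, whose median was -0.069. This is a lower share of 16.7%, beside 23.6% of all features. The other 4 subunits tested, Orc1, Orc2, Orc3 and Orc5, ranged from -0.11 to 0.10, and dup, which loads the Mcm ring together with the origin complex, was at -0.14 ± 0.08. None of these 5 passed. Whether Orc4 differs from the other subunits was not tested.

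Of the 4 Mcm genes chosen by the rule, whose products belong to the helicase ring, Mcm5 and Mcm6 were lower and Mcm2 and Mcm3 did not pass. Mcm5 minus Mcm3 was -0.32 ± 0.14 and Mcm6 minus Mcm2 was -0.17 ± 0.06 (SD, n = 3), pairs chosen after their values were seen. The exact two-sided sign-flip p was 0.25 for each. That is the smallest value 3 arrays allow, so the test could not decide whether these genes differ, and no difference is established. Mcm5 (gene ID 41296) was at -0.16, -0.45 and -0.29 on replicates 3, 4 and 6, with a mean of -0.30 ± 0.15 (SD, n = 3; 95% interval -0.48 to -0.13; adjusted p = 0.0173). Replicate 4 was the lowest array for Mcm5, unlike for the other genes of the rule that passed, and without it the adjusted p was 0.0595. Mcm6 (gene ID 31603) was at -0.26, -0.16 and -0.25 (mean -0.23 ± 0.06; 95% interval -0.37 to -0.08; adjusted p = 0.0245). Its arrays lay close together below 0, but its change was small, and the call was lost without replicate 3 (adjusted p = 0.157), without replicate 6 (adjusted p = 0.0924) and on the values as deposited (-0.16, adjusted p = 0.0633). Mcm2 (gene ID 40973) was at -0.092, -0.050 and -0.017 (mean -0.053 ± 0.038; 95% interval -0.19 to 0.09; adjusted p = 0.512). Mcm3 (gene ID 31449) was at 0.20, -0.019 and -0.13 (mean 0.018 ± 0.171; 95% interval -0.17 to 0.20; adjusted p = 0.877). The values of Mcm3 lay on both sides of 0, and its mean was -0.075 without replicate 3. The intervals of Mcm2 and Mcm3 do not reach the means of Mcm5 or PCNA, but a miss of the threshold does not show that they were unchanged.

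The ring has 1 more subunit on the arrays, dpa, which is Mcm4. It was at -0.30, -0.19 and -0.17 on replicates 3, 4 and 6 (mean -0.22 ± 0.07; adjusted p = 0.0302), and its call was lost without any 1 of the 3 replicates (adjusted p = 0.0527 to 0.199) and on the values as deposited (adjusted p = 0.0850). With dpa counted, 3 of the 5 ring subunits tested were lower and 2 did not pass. In the whole helicase list, 12 of 14 genes were tested, of which 4 were lower, 0 were higher, also at an unadjusted p under 0.05, and the other 8 missed the threshold. The lower share was 33.3%, beside 23.6% of all features. The median of the list was -0.051, and its count of lower genes was 2 as deposited and 1 to 2 without a replicate. Of all 13027 features, 2730 were lower as deposited and 1993 to 3074 without a replicate. Psf1, part of the GINS complex that binds the ring when it becomes active, was the lowest at -0.34 ± 0.11 (adjusted p = 0.00712), with 0.0685 without replicate 3. The other GINS subunits, Psf2, Psf3 and Sld5, had means between -0.05 and -0.02, and Cdc45, which travels with the ring, was at 0.07 ± 0.02. These did not pass.

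CycE (gene ID 34924) showed no detectable difference. Its mean over 2 probes was -0.018, -0.011 and 0.022 on replicates 3, 4 and 6 (mean -0.0022 ± 0.0212, SD, n = 3; 95% interval -0.14 to 0.14; adjusted p = 0.982). The probes, taken alone, had means of 0.0010 and -0.0053. A change as large as that of Mcm6, Mcm5 or Orc4 lies outside this interval.

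The genes that control entry into S phase around CycE included several with lower ratios. Of 15 listed, 12 were tested, of which 6 were lower, 1 was higher and 5 missed the threshold, around a median of -0.17. The lower share was 50%, beside 23.6% of all features. The lowest was fzr, at -0.39, -0.71 and -0.85 on replicates 3, 4 and 6 (mean -0.65 ± 0.24; adjusted p = 0.00165), which encodes the activator of the anaphase-promoting complex that lets Drosophila cells pass from mitotic cycles to endocycles. Cdk2, the kinase partner of CycE, was at -0.31 ± 0.16 (adjusted p = 0.0174), the repressor E2f2 at -0.27 ± 0.02 (adjusted p = 0.00940) and CycD at -0.23 ± 0.10 (adjusted p = 0.0300). CycD is the mean of 2 probes that disagreed, 1 at -0.36 (adjusted p = 0.00393) and 1 at -0.11 (adjusted p = 0.292), so its call rests on 1 probe. Rbf, the retinoblastoma protein that binds E2F factors, was lower at -0.21 ± 0.05 (adjusted p = 0.0298). The activator E2f1 (0.06 ± 0.11) and its partner Dp (-0.03 ± 0.09), through which many replication genes are transcribed, did not pass. Dref, a transcription factor known to act on the PCNA promoter, was named after its value was seen, as was Rbf2. Dref was lower at -0.20 ± 0.07 (adjusted p = 0.0407), and Rbf2 was the gene of the list that was higher, at 0.20 ± 0.08 (adjusted p = 0.0451). Of the 6 lower genes, 1 was called lower without replicate 3, 4 without replicate 4 and 2 without replicate 6, and 3 on the values as deposited. Of all 13027 features, 1993, 3074, 2641 and 2730 were lower in these settings, in this order. Without replicate 3 the lower share of the list was not above the 15.3% of all features.

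Genes that act after or beside replication were mixed. Of 7 genes of chromatin assembly, all tested, 2 were lower, 1 was higher and 4 did not pass, and here the median was 0.12. The lower share was 28.6%, beside 23.6% of all features. With the centring the count of higher genes in this list changed, to 4 as deposited and 0 with arrays centred on chemosensory receptor probes. Its count of lower genes stayed at 2. Higher calls among all 13027 features moved the same way, from 1744 to 3040 and to 959 in these settings. The change is thus not particular to this list. The histone chaperone gene asf1 was at -0.81 ± 0.11 (adjusted p = 1.27e-04), Caf1-55 at -0.27 ± 0.10 (adjusted p = 0.0160) and dre4, a subunit of the FACT complex, at 0.23 ± 0.09 (adjusted p = 0.0296). The call of dre4 was lost without replicate 3 or replicate 4 (adjusted p = 0.142 and 0.0948), and its adjusted p was 0.172 with arrays centred on chemosensory receptor probes. Caf1-55 was not called without replicate 3 or without replicate 6 (adjusted p = 0.0791 and 0.0827). The other subunits of the assembly factor CAF-1, at 0.12 ± 0.08 and 0.18 ± 0.09, did not pass. The replication checkpoint list holds 7 genes, of which 5 could be tested. Among these, 1 passed as higher and 0 as lower, where 13.4% of all features were called higher. The remaining 4 missed the threshold. An unadjusted p under 0.05 was reached by 2 of the 5, both with higher ratios, beside 2556 higher and 3557 lower of all 13027 features. The one that passed was mei-41, the ATR kinase, at 0.20 ± 0.04 (adjusted p = 0.0374), a call lost without any 1 of the replicates (adjusted p = 0.0588 to 0.168).

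Mitotic genes, which dividing cells use and endoreplicating cells do not need, had a median near that of all features. Of 37 listed, 25 were tested, of which 6 were lower, 0 were higher, also at an unadjusted p under 0.05, and 19 missed the threshold, around a median of -0.025. The lower share was 24.0%, close to the 23.6% of all features. The lowest were rod, a spindle checkpoint gene, at -0.70 ± 0.26 (adjusted p = 0.00156), scra, which encodes anillin of the division furrow, at -0.48 ± 0.20 (adjusted p = 0.00439), borr, a chromosomal passenger gene, at -0.48 ± 0.08 (adjusted p = 0.00111), and Bub3, of the spindle checkpoint, at -0.41 ± 0.10 (adjusted p = 0.00282). CycB, the mitotic cyclin, was at 0.08, 0.07 and 0.07 on replicates 3, 4 and 6 (mean 0.07 ± 0.01; adjusted p = 0.349), with the arrays in a narrow range and no call. Cdk1, CycA, stg and dap were not analysed here.

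**Figure D3:**
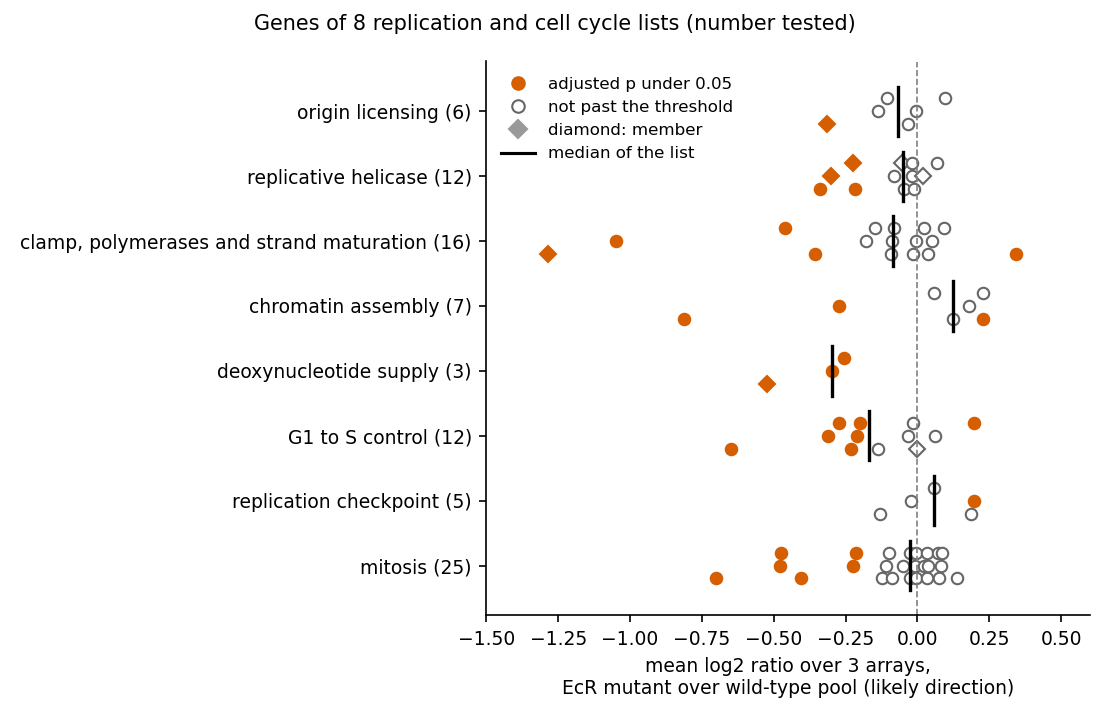
Mean log2 ratio over 3 arrays (horizontal axis) of every tested gene in 8 lists (rows, with the number tested), filled where the adjusted p was under 0.05, with diamonds for the replication genes chosen by the rule and a bar at the median of each list. Medians run from -0.30 for deoxynucleotide supply to 0.12 for chromatin assembly, and PCNA and RPA2 are the genes below -1.

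In the 5 lists that make up the replication machinery (origins, helicase, fork proteins, chromatin assembly and nucleotide supply) 44 genes were tested together. Of these 14 were lower, 2 were higher and 28 missed the threshold, around a median of -0.066, so that 31.8% were lower beside 23.6% of all features. The 37 genes of these lists that the rule did not choose had 9 lower and 2 higher, with a median of -0.031, and their lower share of 24.3% was close to that of all features. A mean below a 1.5-fold decrease was seen for 3 of the 44, PCNA, RPA2 and asf1. Among all 13027 features it was seen for 1242, so the share in these lists was not larger. Without replicate 3 the count of lower genes among the 44 was 6, a share not above the 15.3% of all features called lower there. With the values as deposited, where 0 is set without centring, the count was 12, beside 2730 of all 13027 features. Centring on chemosensory receptor probes moved the median of all features to -0.092 and that of the 44 genes to -0.17. Of the 44, 19 were then lower and 1 higher, beside 4196 lower and 959 higher of all 13027 features.

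In order of their mean ratios the genes ran PCNA, RnrL, Orc4, Mcm5, Mcm6, Mcm2, CycE and Mcm3. PCNA lay below RnrL on all arrays, and their 95% intervals did not overlap. For each of the other 6 neighbouring pairs the intervals overlapped. RnrL and Orc4, Mcm6 and Mcm2, and Mcm2 and CycE nevertheless stood in this order on all 3 arrays, and the other 3 pairs did not. Farther apart in the order, the interval of RnrL did not overlap those of Mcm2, CycE and Mcm3, and that of Orc4 did not overlap that of CycE. PCNA minus RnrL, taken within each array, was -0.87, -0.64 and -0.78 on replicates 3, 4 and 6 (mean -0.76 ± 0.11, SD, n = 3). PCNA minus the mean of the 4 Mcm genes was -1.37, -0.75 and -1.31 (mean -1.15 ± 0.34). The exact two-sided sign-flip test gave p = 0.25 for each, which is the smallest value that 3 arrays allow, also after adjustment over the 6 differences computed, and the pairs were chosen after their values were seen. Probes can differ in how far they compress a ratio, so a difference between probes is less certain than the direction of each.

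The arrays differed in the size of the ratios. Of the 5 lower genes, 4 had their value nearest 0 on replicate 4, as did 60.9% of all features called lower. The SD over all features was 0.509, 0.453 and 0.570 on replicates 3, 4 and 6, so replicate 4 had the narrowest spread. The mean over the 8 genes was -0.33, -0.27 and -0.41, with 7, 8 and 7 of them below 0. When arrays were scaled to the same spread the calls of the 8 genes were the same in number, 5 lower and 0 higher, and PCNA was at -1.28 (adjusted p = 3.48e-05).

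**Figure D4:**
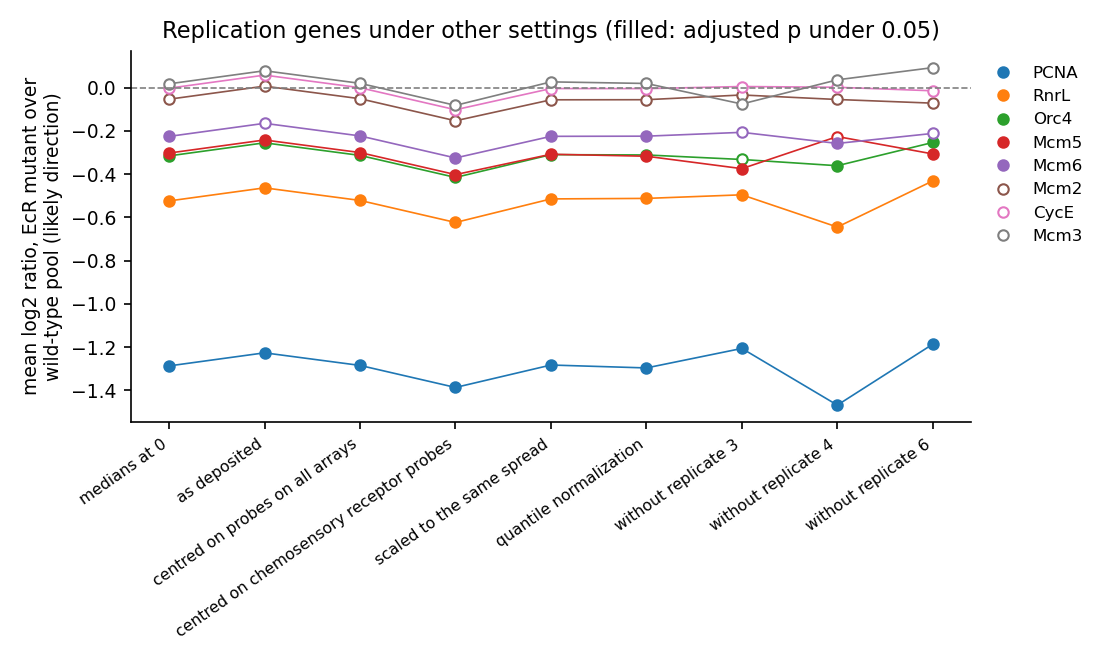
Mean log2 ratio (vertical axis) of the 8 replication genes, each a line, under other centrings and scalings and without each replicate (horizontal axis), filled where the adjusted p was under 0.05. PCNA stays between -1.47 and -1.19 and RnrL between -0.64 and -0.43, filled throughout, while Orc4, Mcm5 and Mcm6 each lose the call in at least 1 setting.

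In RNA of a whole tissue, fewer cells of a type and less RNA per cell cannot be told apart, so markers of the cells were read beside these genes. Of 9 markers of imaginal cells and progenitors, 7 were tested, of which 4 were lower (57.1%, beside 23.6% of all features), 0 were higher and 3 did not pass. The medians of these markers of imaginal cells were -0.25, -0.16 and -0.23 on replicates 3, 4 and 6. Egfr, the receptor that drives their division, was at -0.60 ± 0.29 (adjusted p = 0.00455), its ligand spi at -0.45 ± 0.20 (adjusted p = 0.00593), esg, a transcription factor that marks these cells, at -0.39 ± 0.14 (adjusted p = 0.00524) and Sox21a at -0.19 ± 0.03 (adjusted p = 0.0375), a call lost without any 1 replicate (adjusted p = 0.0544 to 0.188). Without replicate 3 the adjusted p of esg was 0.0573 and that of spi 0.0542. Delta, a Notch ligand of progenitors, was at -0.10 ± 0.04 and did not pass. Of 11 markers of the large digestive cells, 9 were tested and 7 were higher, 0 lower, beside 13.4% of all features higher. Their median was 1.32, with the lowest median of an array, 1.18, on replicate 4. The highest were Mal-A1 at 3.79 ± 0.19 (adjusted p = 1.26e-06) and mag at 3.12 ± 0.28 (adjusted p = 4.97e-06). All 7 genes that were higher encode digestive enzymes. The other 2 tested, the transcription factors cad and nub, were at -0.15 ± 0.15 and -0.13 ± 0.19 and did not pass, with nub below 0 on all arrays.

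Other tissues that a dissected gut can carry were read in the same way. The counts that follow stand beside 23.6% of all features lower and 13.4% higher. Of 7 fat body markers 4 were tested and 3 were lower, with list medians of -0.92, -0.36 and -0.78 on replicates 3, 4 and 6, the lowest being Fbp1 at -1.01 ± 0.31 (adjusted p = 5.03e-04) and Lsp2 at -0.92 ± 0.34 (adjusted p = 0.00108). The marker that did not pass, apolpp, was at -0.08 ± 0.29 (adjusted p = 0.604), with 0.25 on replicate 4. Of 11 hemocyte markers tested, 3 were lower and 2 higher, from crq at -1.14 ± 0.15 (adjusted p = 4e-05) to lz at 0.24 ± 0.06 (adjusted p = 0.0213). Of 6 muscle markers tested, 2 were higher, bt at 0.58 ± 0.16 (adjusted p = 0.00113) and up at 0.40 ± 0.18 (adjusted p = 0.00796), and of 7 enteroendocrine markers tested 2 were higher, CCHa2 at 0.73 ± 0.24 and Dh31 at 0.30 ± 0.23 (adjusted p = 0.0410). Of 2 salivary gland markers tested Sgs1 was higher at 0.26 ± 0.05 (adjusted p = 0.0138), and neither of 2 Malpighian tubule markers tested passed, with a median of 0.052. Some of these calls were lost on leaving out a replicate. The adjusted p of Dh31 was 0.110 without replicate 4 and 0.158 without replicate 6, where its mean was 0.19, that of lz was 0.111 without replicate 3 and 0.108 without replicate 6, and without replicate 3 that of Sgs1 was 0.109 and that of up 0.0667. With arrays centred on chemosensory receptor probes Dh31, lz and Sgs1 also missed the threshold (adjusted p = 0.141, 0.120 and 0.0786). The part of any of these lists in the ratios of the replication genes was not tested.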

How the data were processed

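The authors deposited log2 ratios of the channels for 20000 probes. No source used here names the scanner software, background correction or spot filter, and RNA was amplified by in vitro transcription, per the labels. The log base was checked from the values: with 1 constant per array, 100% of values under 1.5 were logs to base 2 of ratios in steps of 0.001 (tolerance 0.02 of a step), against 4.6% to 6.77% for natural log and log10. No intensities were used, so signal over background is unknown. Subtracting its own median centred every array, values of probes with the same symbol were then averaged, and the 13027 features present on all 3 arrays were fitted together with lmFit and eBayes of limma 3.58.1 (R 4.3.3; 6.88 degrees of freedom, prior included). The mean was tested against 0, two-sided, with Benjamini-Hochberg adjustment over all features at 0.05. Symbols came from the platform annotation; neighbouring genes came from RefSeq (Release 6 plus ISO1 MT). Figures used Python 3.11.15 and matplotlib 3.10.9. The fit was also run on simulated data with independent, normally distributed arrays. These do not share a pool as the real arrays do, so the run is no check of the small ratios reported here.

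The genes and lists were chosen with earlier results of these data known. From each list, up to 4 genes past the threshold with 1 sign on all arrays and the largest absolute mean were named, besides the genes of the rule and EcR, Cdk2, E2f1, E2f2, Dp, Rbf, fzr, CycB, esg and Delta, which were named whatever their value. Cdk1, CycA, stg and dap were planned to be named in the same way, but none was tested. Other genes named were chosen after their values were seen. In all 86 of 120 genes in 8 pathway lists and 48 of 71 in 8 marker lists were tested. Alternatives were other centrings, equal spread of the arrays, quantile normalization, a looser requirement of 2 arrays, single probes, robust eBayes, a plain one-sample test, stricter thresholds and leaving out each replicate.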

Additional observations from a re-analysis of the deposited data

How the results depend on the processing

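The ratios of PCNA and RnrL were lower and past the threshold under each centring and scaling, with robust eBayes and without each replicate. With a plain one-sample test, which uses each gene's own variance, none of the 8 genes passed (adjusted p from 0.106 to 0.176 for the 5 lower ones, at means of -1.29 for PCNA, -0.52 for RnrL, -0.32 for Orc4, -0.30 for Mcm5 and -0.23 for Mcm6); 3 had an unadjusted p under 0.05, and over all features 4 passed and 4370 had such a p. EcR, at 1.49, also missed the threshold there (adjusted p = 0.197). As deposited, Mcm6 at -0.16 lost its call, and Mcm2 and CycE turned to 0.0074 and 0.058. CycE also turned to 0.000071 when centred on probes present on all arrays and to 0.0010 for 1 of its probes, and Mcm3 to -0.082 on receptor centring; none of these values passed. E2f1 and CycB turned to -0.037 and -0.025 on receptor centring and Dp to 0.028 as deposited, without a call. Leaving out each replicate gave -0.36 to -0.25 for Orc4, -0.37 to -0.23 for Mcm5, -0.26 to -0.21 for Mcm6, -0.014 to 0.0056 for CycE, -0.075 to 0.093 for Mcm3, -0.00086 to 0.10 for E2f1 and 1.14 to 1.95 for EcR, whose adjusted p was 0.0560 without replicate 3.

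Of the 8 genes, 3 were lower at an adjusted p under 0.01, 1 with a 1.5-fold change as well, 0 by the plain test, and 3 to 4 without a replicate. In the 5 replication lists, where 14 were lower and 2 higher, the lower count was 8 at 0.01, 3 at 1.5-fold, 0 by the plain test and 6 to 12 without a replicate. Over all 13027 features the lower count was 1237 at 1.5-fold, 3 by the plain test and 1993 to 3074 without a replicate. With other centrings it was 2730 as deposited and 4196 on receptor centring. The count over all features at 0.01 is not given here, so the counts at 0.01 cannot be read against it. In the 5 lists the higher count was 5 as deposited, 1 on receptor centring, 0 by the plain test, at 0.01 and at 1.5-fold, and 0 to 2 without a replicate. Over all features the higher count was 3040 as deposited, 959 on receptor centring, 1 by the plain test and 787 to 1539 without a replicate. For G1 to S control, 6 lower became 3 as deposited, 2 at 0.01, 1 at 1.5-fold, 0 by the plain test and 1 to 4 without a replicate, and 1 higher became 0 on receptor centring, by the plain test, at both stricter thresholds and without any 1 replicate. For the checkpoint list, 1 higher became 2 as deposited and by single probes, 0 on receptor centring, by the plain test and at both stricter thresholds, and 0 to 1 without a replicate, and 0 lower became 1 on receptor centring and by single probes. For mitosis, 6 lower became 1 at 1.5-fold and 0 by the plain test, and 0 higher became 1 as deposited. Over all features 63.8% of calls were lower, 47.3% as deposited and 81.4% on receptor centring. A change of centring moved the mean ratio of every feature by the same amount. The median of all features was 0.0080 with array medians at 0, 0.069 as deposited and -0.092 on receptor centring. The causes of the other shifts were not tested. Each ratio pairs a mutant sample with the pool on the same array, but the pool is 1 control sample, so no mutant sample has a wild-type partner of its own. The planned descriptions of promoters and proteins were not run. With 3 arrays and no intensities, small ratios such as those of the Mcm genes are the least certain.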

Other observations

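Genes beside the replication genes on their chromosomes, taken from the RefSeq gene table by order of start, were near 0 next to PCNA, RnrL and Orc4 where tested. Next to PCNA, plu, which encodes a cell cycle regulator of the early embryo, was at 0.09 ± 0.12 (adjusted p = 0.347), and Hsl on the other side was not tested. Next to RnrL, CG4995 and Schip1 were at 0.07 ± 0.10 and 0.02 ± 0.09, and next to Orc4, ETH and CG12849 were at -0.0011 ± 0.0743 and 0.12 ± 0.15, and none of these passed. Mcm2 at -0.053 lies beside RPA1 at -0.46 ± 0.12 (adjusted p = 0.00185), a neighbouring pair of replication genes of which only RPA1 passed; their difference was not tested. Mcm5 lies between Art1 at -0.25 ± 0.09 (adjusted p = 0.0205) and CG14687 at -1.57 ± 0.05 (adjusted p = 6.97e-06), and both neighbours were lower, as was Mcm5. Next to Mcm6, CG3198 was at 0.17 ± 0.07 and did not pass, and ND-ASHI, of respiratory complex I, was lower at -0.46 ± 0.14 (adjusted p = 0.00254). ND-B17, of the same complex, lies next to CycE and was lower at -0.41 ± 0.07 (adjusted p = 0.00194). Next to Mcm3, Rnp4F and CG3309 were at -0.11 ± 0.03 and -0.06 ± 0.06, and next to Mcm2 on the other side CG9630 was at 0.14 ± 0.15, without a call.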
